A study of Homo sapiens with 36 samples.

Results

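The genes described here were chosen by name for their place in quinone, carbonyl and electron-transfer metabolism: NQO1, POR, CBR1, CBR3, AKR1B1, AKR1B10, AKR1C1, AKR1C2, AKR1C3 and EPHX1. A probe set was taken for a gene where the platform annotation gave its symbol, and where several did, the one with the highest overall mean stood for the gene. Of the 10 listed genes, 9 were measured, among 11092 genes in all, and AKR1B1 was not analysed here because no probe set is paired with its symbol alone. The genes were measured on 36 single-colour Affymetrix arrays of HK-2, a cell line immortalized from the proximal tubule of a human kidney, in a series whose stated aim was to find signatures of toxicity. The arrays fell into 2 sets of 18, each with its own vehicle controls. In one set, near-confluent cells were exposed for 12 h or 48 h to vehicle or to one of the compounds named CdCl and Di in the labels. In the other set the exposure lasted 24 h or 48 h and was to vehicle or to Kbr at a dose named only low or high. The labels give 3 biological replicates for each of the 12 groups and do not say whether these came from separate passages, so p-values measure the spread between these samples. The compound names are not spelled out and no concentrations are given in the sources used here. HK-2 is a single transformed line, which limits it as a model of the tubule.

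Most of these enzymes pass electrons from NADPH to quinones, aldehydes and ketones. NQO1 reduces quinones in a single step that bypasses the reactive semiquinone, whereas POR, the reductase that feeds microsomal cytochromes P450 and heme oxygenase, reduces quinones one electron at a time and can thereby set up redox cycling with oxygen. CBR1 and CBR3 are short-chain carbonyl reductases. AKR1B10 and the AKR1C enzymes belong to the aldo-keto reductases, of which AKR1C1, AKR1C2 and AKR1C3 also interconvert steroids and prostaglandins. EPHX1, the microsomal epoxide hydrolase, is no reductase: it opens epoxides with water. Several of the genes are textbook targets of NRF2, the transcription factor that binds antioxidant response elements when electrophiles or oxidants accumulate.

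AKR1C1, AKR1C2 and AKR1C3 lie next to each other on chromosome 10, and their upstream sequences are shown because the values of these genes moved together. The sequences lie before the annotated starts, so their similarity does not show how far the probe sets can be told apart. Each run is the 250 bases before an annotated start in RefSeq (GRCh38.p14), printed 5′ to 3′ on the strand of the gene. AKR1C1 is at chr10:4963165-4963414 on the plus strand, AKR1C2 at chr10:5003858-5004107 on the minus strand, and the starts of AKR1C3 are at chr10:5048531-5048780 and chr10:5094164-5094413 on the plus strand. Capitals mark the longest unbroken run that the window shares with AKR1C1 (for AKR1C1, with AKR1C2).
AKR1C1: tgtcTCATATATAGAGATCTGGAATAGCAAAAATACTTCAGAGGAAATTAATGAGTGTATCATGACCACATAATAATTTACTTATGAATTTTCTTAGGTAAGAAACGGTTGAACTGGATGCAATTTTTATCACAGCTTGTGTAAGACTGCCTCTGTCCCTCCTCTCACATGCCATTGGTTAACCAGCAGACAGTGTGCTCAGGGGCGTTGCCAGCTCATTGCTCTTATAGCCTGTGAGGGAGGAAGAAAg
AKR1C2: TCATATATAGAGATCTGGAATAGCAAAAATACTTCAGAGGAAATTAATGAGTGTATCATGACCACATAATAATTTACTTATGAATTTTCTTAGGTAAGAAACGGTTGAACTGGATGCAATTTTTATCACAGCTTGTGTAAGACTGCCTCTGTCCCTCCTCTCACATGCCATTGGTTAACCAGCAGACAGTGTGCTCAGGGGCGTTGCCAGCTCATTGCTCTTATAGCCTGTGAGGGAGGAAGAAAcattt
AKR1C3 upstream start: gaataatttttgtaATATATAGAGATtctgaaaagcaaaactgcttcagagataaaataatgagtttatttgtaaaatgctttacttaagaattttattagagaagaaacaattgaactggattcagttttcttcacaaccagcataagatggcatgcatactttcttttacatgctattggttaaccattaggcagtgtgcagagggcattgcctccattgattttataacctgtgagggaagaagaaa
AKR1C3 downstream start: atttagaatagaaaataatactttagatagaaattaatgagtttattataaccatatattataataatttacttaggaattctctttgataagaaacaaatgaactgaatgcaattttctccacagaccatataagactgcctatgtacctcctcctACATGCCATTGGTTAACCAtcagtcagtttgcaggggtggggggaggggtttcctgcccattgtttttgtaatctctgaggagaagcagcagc
The windows of AKR1C1 and AKR1C2 shared an unbroken run of 245 bases. The AKR1C3 windows were 76.8% and 79.1% identical to that of AKR1C1 over 241 and 234 aligned bases, with longest shared runs of 12 and 19 bases.

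Windows were found for 7 of the 10 listed genes, 11 windows in all, and none is held here for POR, CBR3 or AKR1B10. The antioxidant response element core, written TGACNNNGC and searched on both strands, was present in 10.9% of all 35116 windows of this length and in 2 of the 11. These 2 are the only matches among the 11, and each is shown with 16 bases on either side of the match in capitals. EPHX1 holds it 78 bases before a start (chr1:225825260-225825300, plus strand), and CBR1 holds it on the other strand 159 bases before its start (chr21:36069849-36069889, plus strand).
EPHX1: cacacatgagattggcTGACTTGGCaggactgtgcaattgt
CBR1: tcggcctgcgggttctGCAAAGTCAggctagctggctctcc
Its absence from the NQO1 window and the AKR1C windows says only that these letters do not occur in those 250 bases. The AP-1 element TGANTCA was present in 6.57% of all windows and in 0 of the 11. The dioxin response element core GCGTG was present in 32.2% and in 4 of the 11, namely windows of EPHX1, CBR1 and AKR1B1. A match describes letters and not a site of binding.

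Values are log2 expression made with GCRMA, on which a difference of 1 is a doubling of signal. A value under 4 was treated as background. The probe sets used were 210519_s_at for NQO1, 208928_at for POR, 209213_at for CBR1, 205379_at for CBR3, 206561_s_at for AKR1B10, 204151_x_at for AKR1C1, 209699_x_at for AKR1C2, 209160_at for AKR1C3 and 202017_at for EPHX1. Arrays of a group correlated at r = 0.982 to 0.995. As a sign of RNA integrity, the actin control probes read higher at the 3′ than at the 5′ end by group means of 1.40 to 1.84 in the CdCl and Di set and 0.87 to 1.06 in the Kbr set, so the sets differed more than groups within a set. Of 20 epithelial and proximal tubule markers, 19 had a probe set, 8 were above background on every array (KRT8, KRT18, KRT19 and PAX8 among them) and 9 on none, including the tubule genes LRP2, CUBN, AQP1 and SLC34A1. Of 13 markers of other cell types, 12 had a probe set and 9 were at background on every array, but the fibroblast markers DCN (group means 9.85 to 12.17) and LUM (7.61 to 9.96) were above it on all 36. DCN was lower than control in 5 of the 8 comparisons with control, with low Kbr at both times, high Kbr at both times and Di at 48 h, by 0.75 to 1.94 on the log2 scale, and LUM in 5, by 0.72 to 1.92. Of the 9 epithelial markers that passed the filter, 2 fell and 0 rose with CdCl at 12 h and 0 changed with Di at 12 h, whereas 1 rose in each other treated group and 5 fell with CdCl at 48 h, 6 with Di at 48 h, 4 with low Kbr at 24 h and 7 in each of the remaining Kbr groups. Over all genes, 30.5% and 22.0% were lower with CdCl at 12 h and 48 h and 4.60% and 23.9% with Di. With Kbr at 24 h and 48 h, 8.28% and 23.2% were lower at the low dose and 25.3% and 34.5% at the high dose. CLDN2, a tubular claudin, fell by 5.77 with Di at 48 h, and its lowest group mean, 3.39, was under the background level of 4. The part of these marker shifts in the results below was not tested. In whole-culture RNA a smaller share of cells expressing a gene and less RNA of it per cell cannot be told apart.

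Against matched controls, some or all of the measured genes were called higher in each treated group, and none was called lower. Calls below are from limma's moderated test over all 36 arrays with Benjamini-Hochberg adjustment over the 11092 genes, at an adjusted p under 0.05. CdCl raised 8 of the 9 at 12 h, where 13.4% of all genes were higher, and 8 of the 9 at 48 h, where 20.7% were. Di raised 2 at 12 h, where 1.67% of all genes were higher, and 9 of the 9 at 48 h, against 19.1%. Low Kbr raised 4 at 24 h, against 6.93% of all genes, and 6 at 48 h, against 23.8%. High Kbr raised 8 at 24 h, against 15.4%, and 8 at 48 h, against 27.3%. In a model that also held the replicate number as a block, AKR1C1 and AKR1C3 passed too with low Kbr at 24 h. AKR1C3 then also passed with low Kbr at 48 h and with high Kbr at 24 h. With 1 array left out at a time, CdCl at 12 h gave 7 and Di at 12 h gave 0 to 2. Low and high Kbr at 24 h gave 3 to 5 and 7 to 9, and the 48 h counts did not change. With only the compared groups, Di at 12 h gave 0, and low and high Kbr at 24 h gave 2 and 5. One of the 9, AKR1B10, passed the filter on low values only through treated arrays, so its share in these and all later counts follows in part from the filter. The genes were also chosen with earlier results of these data known. The counts beside the shares over all genes are therefore a description and not an independent test. The median difference of the 9 was largest with Di at 48 h, at 3.48, where the median of all genes was -0.01. It was 2.01 and 1.51 with CdCl at 12 h and 48 h, 0.14 with Di at 12 h, 0.55 and 0.98 with low Kbr, and 0.75 and 1.19 with high Kbr. With CdCl at 12 h the median of all genes lay 0.159 lower than after centring each array, and values for that comparison are therefore also given above the median of all genes.

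**Figure D1:**
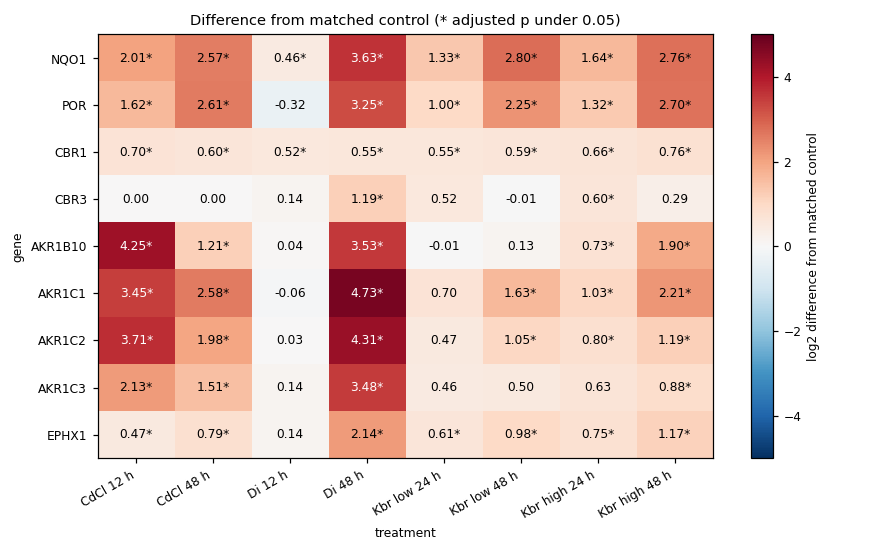
Log2 difference from the matched control of the 9 measured genes (vertical axis) in the 8 treated groups (horizontal axis), with colour and printed number giving the difference and an asterisk marking an adjusted p under 0.05. The Di column at 48 h carries 9 asterisks and the Di column at 12 h carries 2, while CBR1 stays between 0.52 and 0.76 in every column.

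NQO1, the quinone reductase, was raised by every treatment at every time. In the 12 h controls it read 10.92, 10.77 and 10.74, against 12.79, 12.90 and 12.77 with CdCl and 11.37, 11.09 and 11.37 with Di. At 48 h the controls read 10.03, 10.02 and 10.08, against 12.74, 12.51 and 12.57 with CdCl and 13.70, 13.66 and 13.65 with Di. No treated array overlapped its controls, and Di, the weaker treatment at 12 h, gave the highest NQO1 readings of the study at 48 h. The difference with CdCl was 2.01 ± 0.13 (SE, n = 3 against 3; limma adjusted p = 5.11e-13) at 12 h, which is 2.17 above the median of all genes, and 2.57 ± 0.13 (adjusted p = 1.58e-15) at 48 h. With Di it was 0.46 ± 0.13 (adjusted p = 0.0270) at 12 h and 3.63 ± 0.13 (adjusted p = 9.52e-19), a 12.4-fold rise, at 48 h. The 12 h call with Di was lost when Di replicate 1 or 3 or control replicate 2 or 3 was left out, where the adjusted p ranged from 0.0218 to 0.104 over the 6 arrays left out in turn, and with only the compared groups (0.0732).

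In the Kbr set NQO1 read 11, 11.15 and 10.94 in the 24 h controls, 12.47, 12.60 and 12.02 with the low dose and 12.68, 12.90 and 12.43 with the high dose. At 48 h it read 10.31, 10.43 and 10.59 in controls, 13.41, 13.27 and 13.05 with the low dose and 13.25, 13.27 and 13.09 with the high dose. Treated and control arrays were apart at both times, and the readings of the 2 doses overlapped at both. The low dose raised NQO1 by 1.33 ± 0.13 (adjusted p = 5.44e-08) at 24 h and 2.80 ± 0.13 (adjusted p = 2.50e-15) at 48 h, and the high dose by 1.64 ± 0.13 (adjusted p = 1.42e-10) and 2.76 ± 0.13 (adjusted p = 9.23e-16). Among the 11092 genes the NQO1 difference ranked 11 and 12 from the top with low Kbr at 24 h and 48 h, 21 and 14 with high Kbr, 18 with Di at 48 h, and 148 and 81 with CdCl at 12 h and 48 h. All 3 NQO1 probe sets were called in the same direction in the 8 comparisons. With CdCl at 12 h they gave 2.01, 2.34 and 2.63.

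POR, the flavoprotein that hands electrons to cytochromes P450, followed NQO1 except with Di at 12 h. Its readings were 7.05, 7.08 and 7.20 in 12 h controls, 8.75, 8.81 and 8.65 with CdCl and 7.01, 6.50 and 6.88 with Di. At 48 h they were 7.00, 7.17 and 7.27 in controls, 9.78, 9.79 and 9.70 with CdCl and 10.43, 10.37 and 10.40 with Di. The Di arrays at 12 h lay just below their controls, with a difference of -0.32 ± 0.25 (95% interval -0.82 to 0.19, adjusted p = 0.489), and at 48 h lay above them by 3.25 ± 0.25 (adjusted p = 1.47e-11). CdCl raised POR by 1.62 ± 0.25 (adjusted p = 6.43e-06) at 12 h, 1.79 above the median of all genes, and by 2.61 ± 0.25 (adjusted p = 1.58e-09) at 48 h.

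With Kbr, POR read 7.76, 6.72 and 7.54 in 24 h controls, 8.68, 7.93 and 8.41 with the low dose and 9.12, 8.30 and 8.55 with the high dose. At 48 h the controls read 6.71, 6.56 and 7.36, the low dose 9.53, 8.65 and 9.20 and the high dose 9.94, 9.33 and 9.47. The control replicate at 6.72 was the lowest of the 24 h arrays, and treated arrays were above controls at both times. The low dose raised POR by 1.00 ± 0.25 (adjusted p = 0.00710) and 2.25 ± 0.25 (adjusted p = 4.35e-08) at 24 h and 48 h, the high dose by 1.32 ± 0.25 (adjusted p = 0.000113) and 2.70 ± 0.25 (adjusted p = 3.15e-10). Leaving out that 24 h control, replicate 2, took the low-dose difference at 24 h to 0.68 with an adjusted p of 0.0748, and the call was also lost with only the set (0.0702) and only the compared groups (0.121).

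**Figure D2:**
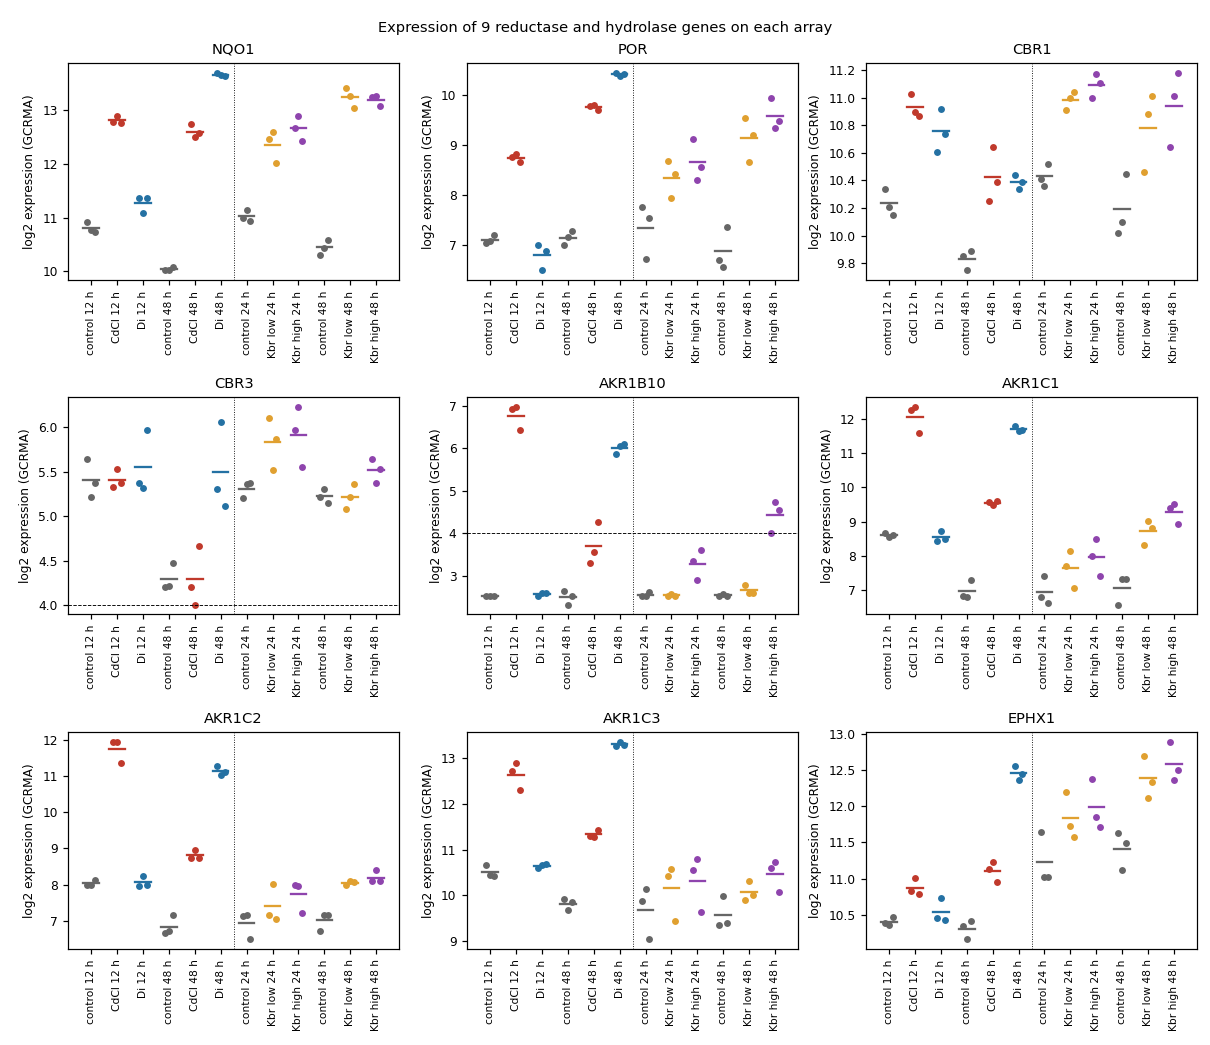
Log2 expression (vertical axis) of each measured gene on each of the 36 arrays, as points, with the mean of each group of 3 as a line; the dotted line separates the CdCl and Di set from the Kbr set, and the dashed line marks the background level of 4. AKR1B10 sits near 2.5 in every control group and reaches 6.92 and 6.97 with CdCl at 12 h, and the AKR1C controls of the CdCl and Di set are lower at 48 h than at 12 h.

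CBR1, a carbonyl reductase of quinones and prostaglandins, rose by a like amount in all 8 comparisons. Its controls read 10.34, 10.21 and 10.15 at 12 h and 9.85, 9.75 and 9.89 at 48 h, against 11.03, 10.90 and 10.87 with CdCl and 10.61, 10.92 and 10.74 with Di at 12 h, and 10.25, 10.64 and 10.39 with CdCl and 10.44, 10.34 and 10.39 with Di at 48 h. In the Kbr set the controls read 10.41, 10.36 and 10.52 at 24 h and 10.02, 10.10 and 10.45 at 48 h, the low dose 10.91, 11 and 11.04, then 10.46, 10.88 and 11.01, and the high dose 11, 11.17 and 11.11, then 10.64, 11.01 and 11.18. Each treated group lay above its own controls without overlap, by the narrowest margin with low Kbr at 48 h. The differences were 0.70 ± 0.13 (0.86 above the median of all genes) and 0.60 ± 0.13 with CdCl at 12 h and 48 h, 0.52 ± 0.13 and 0.55 ± 0.13 with Di, 0.55 ± 0.13 and 0.59 ± 0.13 with low Kbr at 24 h and 48 h, and 0.66 ± 0.13 and 0.76 ± 0.13 with high Kbr. Their limma adjusted p-values ran from 1.85e-05 with high Kbr at 48 h to 0.0193 with Di at 12 h. The change of the Di difference from 12 h to 48 h was 0.03, with a 95% interval of -0.36 to 0.42. The call with Di at 12 h was lost without Di replicate 2 or control replicate 2 or 3, with adjusted p-values up to 0.109, and with only the compared groups (0.0575), which also ended the call with low Kbr at 48 h (0.0554).

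CBR3 is the neighbour of CBR1 on chromosome 21 and encodes a closely related carbonyl reductase, yet it was not raised by CdCl at either time. In the CdCl and Di set it read 5.64, 5.22 and 5.37 in 12 h controls and 4.21, 4.22 and 4.47 in 48 h controls. With CdCl it read 5.33, 5.53 and 5.37 at 12 h and 4.21, 4.01 and 4.67 at 48 h, overlapping the controls each time, and the differences were 0.00 ± 0.21 at both times (95% intervals -0.43 to 0.42 and -0.42 to 0.42; 0.16 above the median of all genes at 12 h). With Di it read 5.37, 5.32 and 5.97 at 12 h and 5.31, 6.06 and 5.11 at 48 h, when it was 1.19 ± 0.21 above controls (adjusted p = 2.55e-05). That Di group stood near the level of the 12 h arrays, while the controls had dropped by 1.11 between the times. High Kbr at 24 h gave 0.60 ± 0.21 (adjusted p = 0.0211), a call lost without high-dose replicate 1 or 2 or control replicate 1 (adjusted p up to 0.128). In that comparison it read 5.97, 6.22 and 5.55 with the high dose and 5.20, 5.36 and 5.37 in controls. The remaining Kbr differences were 0.52 (low dose, 24 h), -0.01 (low dose, 48 h) and 0.29 (high dose, 48 h), with adjusted p-values of 0.0906, 0.984 and 0.233, of which the last passed after quantile normalization (0.0493).

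AKR1B10, an aldo-keto reductase of retinal and other aldehydes, was at background in all 4 control groups, and its mean was above it in 3 treated groups. Whether its probe set also reads RNA of its neighbour AKR1B15 was not tested. AKR1B10 passed the filter on low values only through treated arrays. Its adjusted p-values here and below therefore describe those arrays and are not independent support. Controls of the CdCl and Di set read 2.51, 2.53 and 2.53 at 12 h and 2.64, 2.32 and 2.51 at 48 h. With CdCl it read 6.92, 6.97 and 6.43 at 12 h and 3.29, 3.56 and 4.26 at 48 h. With Di it read 2.51, 2.58 and 2.60 at 12 h and 5.88, 6.06 and 6.11 at 48 h. CdCl arrays were thus high early and near background late, and Di arrays the reverse. Against the background level of 4, the 12 h CdCl group was at least 6.83-fold higher (log2 difference 4.25 ± 0.19, or 4.41 above the median of all genes, adjusted p = 1.52e-16) and the 48 h Di group at least 4.05-fold higher (3.53 ± 0.19, adjusted p = 7.02e-15). CdCl at 48 h gave a difference of 1.21 ± 0.19 (adjusted p = 5.75e-06) with both group means under 4, so no fold is given.

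In the Kbr set AKR1B10 separated the doses. Controls read 2.51, 2.53 and 2.61 at 24 h and 2.51, 2.57 and 2.52 at 48 h, and the low dose 2.53, 2.56 and 2.53, and 2.78, 2.60 and 2.59. The high dose read 3.34, 2.90 and 3.61 at 24 h and 4.0, 4.74 and 4.55 at 48 h. Low-dose arrays stayed at background, and high-dose arrays were above both other groups at both times. The high dose differed from control by 0.73 ± 0.19 (adjusted p = 0.00247) at 24 h, with both means under 4, and was at least 1.35-fold higher at 48 h (1.90 ± 0.19, adjusted p = 1.20e-09). The low dose differed by -0.01 and 0.13 (adjusted p = 0.986 and 0.622).

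AKR1C1, which reduces progesterone and lipid aldehydes, rose with CdCl at both times and with Di at 48 h. It read 8.68, 8.56 and 8.60 in 12 h controls, 12.25, 12.34 and 11.60 with CdCl and 8.43, 8.74 and 8.49 with Di. At 48 h it read 6.83, 6.79 and 7.31 in controls, 9.58, 9.48 and 9.60 with CdCl and 11.79, 11.64 and 11.69 with Di. Di arrays overlapped controls at 12 h and stood far above them at 48 h, while CdCl arrays were apart from controls at both times. CdCl gave 3.45 ± 0.27 (adjusted p = 5.97e-11) at 12 h, 3.61 above the median of all genes, and 2.58 ± 0.27 (adjusted p = 1.03e-08) at 48 h. Di gave -0.06 ± 0.27 (95% interval -0.61 to 0.50, adjusted p = 0.936) and then 4.73 ± 0.27 (26.5-fold, adjusted p = 3.80e-14).

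AKR1C2 and AKR1C3 showed the same order of treatments. AKR1C2, which inactivates dihydrotestosterone, read 8.0, 8.0 and 8.12 in 12 h controls against 11.95, 11.94 and 11.36 with CdCl, and 6.65, 6.71 and 7.15 in 48 h controls against 11.29, 11.04 and 11.11 with Di. The differences were 3.71 ± 0.22 (3.87 above the median of all genes, adjusted p = 1.90e-13) and 1.98 ± 0.22 (adjusted p = 3.39e-08) with CdCl at 12 h and 48 h, and 0.03 ± 0.22 (adjusted p = 0.969) and 4.31 ± 0.22 (adjusted p = 4.45e-15) with Di. AKR1C3, a prostaglandin F synthase and androgen-forming ketosteroid reductase, read 10.66, 10.45 and 10.43 in 12 h controls against 12.72, 12.90 and 12.30 with CdCl, and 9.92, 9.69 and 9.86 in 48 h controls against 13.27, 13.36 and 13.28 with Di. Treated and control arrays were apart in each of these pairs. The later CdCl arrays stood between: at 48 h AKR1C2 read 8.74, 8.97 and 8.75 and AKR1C3 11.31, 11.27 and 11.43. For AKR1C3 the differences were 2.13 ± 0.27 (2.29 above the median of all genes, adjusted p = 5.23e-07) and 1.51 ± 0.27 (adjusted p = 5.55e-05) with CdCl, and 0.14 ± 0.27 (adjusted p = 0.829) and 3.48 ± 0.27 (adjusted p = 2.96e-11) with Di.

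In the Kbr set AKR1C1 and AKR1C2 each passed in 3 of the 4 treated groups and AKR1C3 in 1. AKR1C1 read 6.81, 7.40 and 6.62 in 24 h controls, 7.71, 8.15 and 7.07 with the low dose and 8.0, 8.50 and 7.41 with the high dose. At 48 h it read 6.58, 7.33 and 7.32 in controls, 8.33, 9.01 and 8.81 with the low dose and 9.41, 9.52 and 8.93 with the high dose. At 24 h the third replicate was the lowest of its group in controls and in both doses, so the low-dose readings overlapped the controls, whereas at 48 h the treated arrays were all above them. The same-numbered arrays of this set deviated together, and values with the replicate number as a block are therefore given where they change a call. Low Kbr gave 0.70 ± 0.27 (adjusted p = 0.0809; with the block, adjusted p = 0.0210) at 24 h and 1.63 ± 0.27 (adjusted p = 1.68e-05) at 48 h. Without the block, the 24 h difference also passed when low-dose replicate 3 or control replicate 2 was left out (adjusted p down to 0.0280). High Kbr raised AKR1C1 by 1.03 ± 0.27 (adjusted p = 0.00331) and 2.21 ± 0.27 (adjusted p = 6.28e-08). With only the compared groups, the 24 h calls of AKR1C1 (0.0508) and AKR1C2 (0.0668) with the high dose were lost.

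AKR1C2 read 7.14, 7.15 and 6.50 in 24 h controls and 6.72, 7.15 and 7.16 in 48 h controls, against 8.0, 7.97 and 7.22 and then 8.09, 8.41 and 8.09 with the high dose, which lay above the controls at both times. It was 0.47 ± 0.22 above controls with low Kbr at 24 h (adjusted p = 0.163) and rose by 1.05 ± 0.22 (adjusted p = 0.000346) at 48 h, and with the high dose by 0.80 ± 0.22 (adjusted p = 0.00498) and 1.19 ± 0.22 (adjusted p = 3.99e-05). AKR1C3 read 9.35, 9.99 and 9.40 in 48 h controls and 10.59, 10.73 and 10.08 with the high dose, and this was the only Kbr group in which it passed, at 0.88 ± 0.27 (adjusted p = 0.00651). Its other Kbr differences were 0.46 and 0.50 with the low dose at 24 h and 48 h and 0.63 with the high dose at 24 h (adjusted p = 0.283, 0.144 and 0.0672), and all of them passed with the replicate block (adjusted p = 0.0492, 0.0160 and 0.00344). Without the block, the high-dose value at 24 h also passed when high-dose replicate 3 or control replicate 2 was left out (adjusted p down to 0.00661), and after median centring (adjusted p = 0.0370).

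The AKR1C readings are not independent. The probe sets used for AKR1C1 and AKR1C2, and their other probe sets above background, carry the suffix by which the manufacturer marks probes that also match other transcripts, so RNA of one gene can add signal to the reading of another. The second AKR1C1 probe set gave 2.90 with CdCl at 12 h and 4.21 with Di at 48 h, and the second AKR1C2 probe set gave 3.03 and 3.85. The latter did not pass the test with high Kbr at 24 h (0.57, adjusted p = 0.0611). AKR1C3 is read by a single probe set without that suffix. A further 3 probe sets of AKR1C1 and 1 of AKR1C2 stayed at background throughout.

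EPHX1, which hydrolyses epoxides of aromatic compounds, rose most with Di at 48 h. It read 10.39, 10.36 and 10.47 in 12 h controls, 10.83, 11.01 and 10.79 with CdCl and 10.46, 10.74 and 10.43 with Di. At 48 h it read 10.35, 10.17 and 10.42 in controls, 11.13, 11.23 and 10.95 with CdCl and 12.56, 12.36 and 12.44 with Di. CdCl arrays were above controls at both times, by 0.47 ± 0.19 (0.63 above the median of all genes, adjusted p = 0.0438) and 0.79 ± 0.19 (adjusted p = 0.00114), and Di arrays only at 48 h, by 2.14 ± 0.19 (adjusted p = 2.43e-10); at 12 h Di gave 0.14 ± 0.19 (adjusted p = 0.738). The 12 h call with CdCl was lost when any one of the 6 arrays was left out (adjusted p = 0.0614 to 0.135), with no filter (0.0792) and after quantile normalization (0.0528).

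With Kbr, EPHX1 read 11.64, 11.03 and 11.02 in 24 h controls, 12.20, 11.73 and 11.58 with the low dose and 12.38, 11.85 and 11.72 with the high dose. At 48 h it read 11.63, 11.12 and 11.49, then 12.70, 12.12 and 12.34, and 12.89, 12.36 and 12.50. The first replicate was the highest of each of these groups, and it made low-dose and control readings overlap at 24 h. Low Kbr gave 0.61 ± 0.19 (adjusted p = 0.0279) and 0.98 ± 0.19 (adjusted p = 0.000108), and high Kbr 0.75 ± 0.19 (adjusted p = 0.00201) and 1.17 ± 0.19 (adjusted p = 4.53e-06). The low-dose call at 24 h was lost without low-dose replicate 1 or control replicate 2 or 3 (adjusted p up to 0.165), with no filter (0.0511), with only the set (0.130) and with only the compared groups (0.171). The high-dose call at 24 h was lost with only the compared groups (0.0539).

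CdCl and Di were also set against each other, which compares the treatments at unstated doses and does not involve the controls they share. At 12 h, 6 of the 9 genes were higher with CdCl, where 13.6% of all genes were, and CBR1, CBR3 and EPHX1 did not pass. The difference was 3.68 for AKR1C2, 3.51 for AKR1C1, 1.99 for AKR1C3, 1.94 for POR and 1.55 for NQO1. AKR1B10, at background with Di, was at least 6.83-fold higher with CdCl and takes no place in that order. At 48 h the order had turned, and 8 of the 9 were lower with CdCl, where 17.1% of all genes were. The CdCl minus Di difference was -2.33 ± 0.22 for AKR1C2 (adjusted p = 3.35e-09) and, for the others, AKR1C1 -2.15 ± 0.27, AKR1C3 -1.97 ± 0.27, EPHX1 -1.36 ± 0.19, CBR3 -1.20 ± 0.21 and NQO1 -1.06 ± 0.13. AKR1B10, whose mean with CdCl was under 4, was at least 4.05-fold higher with Di. POR, at -0.64 ± 0.25 (adjusted p = 0.0410), did not pass when any one of the 6 arrays was left out (adjusted p = 0.0753 to 0.0956) or with no filter (0.0775). EPHX1 at 12 h (0.33, adjusted p = 0.174) passed with only the arrays of the set (0.0171). CBR1 differed by 0.04 with a 95% interval of -0.23 to 0.32.

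**Figure D3:**
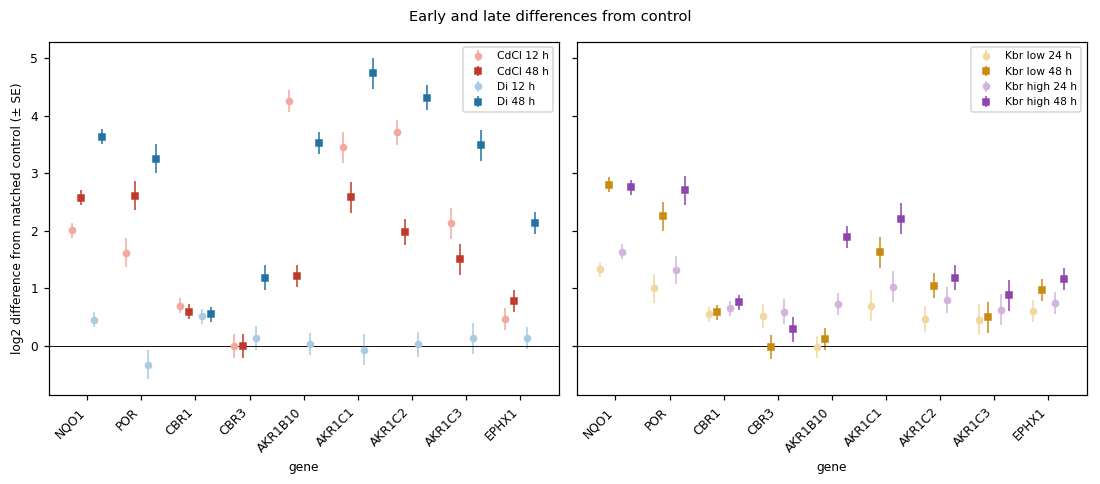
Log2 difference from matched control with its SE (vertical axis) for each gene, at the early time (pale circles) and at 48 h (dark squares), for CdCl and Di on the left and both Kbr doses on the right. With Di the difference grew past the test in every gene except CBR1, which gave 0.52 at 12 h and 0.55 at 48 h, and with CdCl AKR1B10 falls from 4.25 to 1.21 and AKR1C2 from 3.71 to 1.98.

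Whether a response grew between the times was tested as the change of the difference from control. For Di, 8 of the 9 genes grew, where 15.1% of all genes did, by 4.79 ± 0.38 for AKR1C1, 4.28 ± 0.31 for AKR1C2, 3.57 ± 0.35 for POR, 3.49 ± 0.26 for AKR1B10, 3.34 ± 0.39 for AKR1C3, 3.17 ± 0.18 for NQO1, 2.01 ± 0.27 for EPHX1 and 1.06 ± 0.29 for CBR3. AKR1B10 values in tests of change involve group means under 4, so they are log2 differences of deposited values and no fold is drawn from them. For CdCl, 4 genes changed, 2 in each direction, where 24.2% of all genes changed in either. Whether NQO1, POR, AKR1C1 and AKR1C3 passed depended on the settings given here, while AKR1B10 and AKR1C2 passed with each array left out in turn. The AKR1B10 difference changed by -3.03 ± 0.26 (adjusted p = 4.02e-09), although its 48 h level was near background, and AKR1C2 by -1.73 ± 0.31 (adjusted p = 0.000249). NQO1 grew by 0.56 ± 0.18 (adjusted p = 0.0234) and POR by 0.98 ± 0.35 (adjusted p = 0.0410). The median of all genes in that comparison lay 0.134 above its value after centring, and relative to the median of all genes these 4 changes were -3.16, -1.85, 0.43 and 0.86. After median centring neither growth passed (adjusted p = 0.0870 for NQO1 and 0.0524 for POR). The NQO1 call was also lost without CdCl 48 h replicate 1 or 12 h control replicate 1 (adjusted p up to 0.0655) and with the mean of its probe sets (0.27, adjusted p = 0.278), and the POR call with 11 of 12 arrays left out in turn, all but 48 h control replicate 3 (adjusted p up to 0.0868), and with no filter (0.0773). AKR1C1 read -0.87 ± 0.38 (adjusted p = 0.0975) and AKR1C3 -0.62 ± 0.39, which did not pass. Both passed with only the arrays of the set (adjusted p = 0.0111 and 0.0119) and with only the compared groups (0.0245 and 0.0304), and AKR1C1 also when CdCl 12 h replicate 3 was left out (0.0450).

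For low Kbr, the difference grew from 24 h to 48 h in 2 genes, where 2.54% of all genes grew: NQO1 by 1.47 ± 0.18 (adjusted p = 3.78e-05) and POR by 1.25 ± 0.35 (adjusted p = 0.0399). For high Kbr it grew in 4, where 6.89% of all genes did: NQO1 by 1.12 ± 0.18 (adjusted p = 0.000129), POR by 1.39 ± 0.35 (adjusted p = 0.00809), AKR1B10 by 1.16 ± 0.26 (adjusted p = 0.00363) and AKR1C1 by 1.18 ± 0.38 (adjusted p = 0.0366). With the replicate block, AKR1C1 also passed for the low dose (0.94, adjusted p = 0.050) and EPHX1 for the high dose (0.42, adjusted p = 0.0428). The POR call for the low dose was lost with 7 of 12 arrays left out in turn: low-dose 48 h replicate 1, 48 h control replicates 1 and 2, low-dose 24 h replicates 2 and 3, and 24 h control replicates 1 and 3 (adjusted p up to 0.123). It was also lost with no filter (0.0727), only the set (0.215) and only the compared groups (0.252), the last of which ended the low-dose NQO1 call as well (0.0700). The high-dose POR call was lost with only the set (0.0761) and only the compared groups (0.0992). The AKR1C1 call for the high dose was lost with 6: high-dose 48 h replicates 1 and 2, 48 h control replicate 1, high-dose 24 h replicates 1 and 3, and 24 h control replicate 2 (adjusted p up to 0.128). No filter (0.0734), quantile normalization (0.0564), the mean of probe sets (0.0590), only the set (0.135) and only the compared groups (0.146) ended it too.

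The 2 Kbr doses differed in a single gene of the 9 at each time. At 24 h AKR1B10 was 0.74 ± 0.19 higher with the high dose (adjusted p = 0.0191), where 0.685% of all genes were higher, with both group means under 4; the call was lost with each array left out in turn except high-dose replicate 2 (adjusted p up to 0.125), with only the set (0.0520) and with only the compared groups (0.127). At 48 h it was 1.77 ± 0.19 higher (adjusted p = 1.00e-07), at least 1.35-fold, where 6.46% of all genes were higher. The median of all genes in the 48 h comparison lay 0.126 below its value after centring, and AKR1B10 was 1.84 above the median of all genes. POR was 0.46 higher (0.52 above that median) and AKR1C1 0.57 higher (0.64 above it) at 48 h, and these passed only with the replicate block (adjusted p = 0.193 and 0.128 without it, 0.0285 and 0.0451 with it). NQO1 differed by -0.04 (0.02 above that median), with a 95% interval of -0.30 to 0.22 before centring.

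Levels in vehicle controls moved with time in culture. From 12 h to 48 h, 6 of the 9 genes fell in the controls of the CdCl and Di set, where 27.3% of all genes did. The 48 h minus 12 h difference was -1.64 ± 0.27 for AKR1C1, -1.20 ± 0.22 for AKR1C2, -1.11 ± 0.21 for CBR3, -0.77 ± 0.13 for NQO1, -0.69 ± 0.27 for AKR1C3 and -0.40 ± 0.13 for CBR1. The AKR1C3 call (adjusted p = 0.0412) was lost when any one of the 6 arrays was left out (up to 0.118), and the CBR1 call (adjusted p = 0.0154) without 48 h replicate 2 or 12 h replicate 1 (up to 0.0679). Neither passed after median centring, at -0.60 (adjusted p = 0.0784) and -0.31 (adjusted p = 0.113). In the Kbr set, from 24 h to 48 h, NQO1 alone fell, with a difference of -0.59 ± 0.13 (adjusted p = 0.00288; 0.124 with only the compared groups), where 7.16% of all genes fell. POR read -0.46 (adjusted p = 0.236), which passed with the replicate block (adjusted p = 0.0368) and, without it, when 24 h control replicate 2 was left out (adjusted p = 0.0373). A 48 h difference from control therefore sets a treated group against a lower base than a 12 h one for AKR1C1, AKR1C2, CBR3 and NQO1.

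Responses at 48 h were compared across the sets as differences of differences, each against its own control, so that compound, dose and set cannot be told apart. The Di response exceeded that of high Kbr in 7 of the 9 genes, where 23.6% of all genes did. The excess was 3.12 ± 0.31 for AKR1C2, 2.60 ± 0.39 for AKR1C3, 2.52 ± 0.38 for AKR1C1, 1.63 ± 0.26 for AKR1B10, 0.97 ± 0.27 for EPHX1, 0.91 ± 0.29 for CBR3 and 0.87 ± 0.18 for NQO1. For AKR1B10 the 48 h control means (2.49 and 2.53) and the 48 h CdCl mean (3.70) were under the background level of 4. Its values in this paragraph are log2 differences of deposited values, and no fold is drawn from them. The CBR3 excess (adjusted p = 0.0130) was lost without Di 48 h replicate 2, with an adjusted p of 0.0653. POR (0.55, adjusted p = 0.214) passed only with the replicate block (adjusted p = 0.0437). The CdCl response differed from that of high Kbr in 2, where 50.1% of all genes differed in either direction: AKR1B10 was lower (-0.68 ± 0.26, adjusted p = 0.0325) and AKR1C2 higher (0.80 ± 0.31, adjusted p = 0.0360). Leaving out single arrays ended the AKR1B10 call for 8 of 12 (replicates 1 and 2 of CdCl, 1 and 3 of its controls, 2 and 3 of high Kbr and 1 and 3 of its controls; adjusted p up to 0.132) and the AKR1C2 call for 7 of 12 (replicate 2 of CdCl, 1 and 2 of its controls, 1 and 3 of high Kbr and 2 and 3 of its controls; adjusted p up to 0.0868). The AKR1B10 call was also lost with no filter (0.0606) and only the compared groups (0.115), and the AKR1C2 call with no filter (0.0703), quantile normalization (0.0563) and median centring (0.0724). With the replicate block, AKR1C3 (0.63, adjusted p = 0.0277) and EPHX1 (-0.38, adjusted p = 0.0314) passed as well. The NQO1 responses to CdCl and high Kbr differed by -0.19 (95% interval -0.56 to 0.17) and the POR responses by -0.10 (-0.81 to 0.62).

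Across the 36 arrays, after subtraction of the mean of the matched control, the genes fell into patterns that are described here by Pearson's r without a test, since arrays of a group share their treatment and the AKR1C probe sets share targets. NQO1 and POR tracked each other at r = 0.953, and AKR1C1, AKR1C2 and AKR1C3 at 0.958 to 0.969. AKR1B10 was closer to AKR1C2 (0.922) than to NQO1 (0.649). CBR1 and CBR3, though neighbours, gave 0.294. Outside the 9, the genes most like NQO1 were CDKN1A (0.971), ME1 (0.968) and MED27 (0.967), and those most like POR were UPP1 (0.969), BCAR3 (0.968) and DUSP5 (0.967). AKR1C1 lay closest to PPARG (0.944), USP53 (0.941) and PLIN2 (0.936), AKR1B10 to IER5 (0.943), CD55 (0.917) and PPARG (0.899), AKR1C2 and AKR1C3 to MAP2 (0.940 and 0.953), and EPHX1 to DUSP5 (0.929), OSGIN1 (0.928) and SLC12A8 (0.907). CBR1 was closest to M6PR (0.916), and the highest value for CBR3 was 0.786, with KIF13A.

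**Figure D4:**
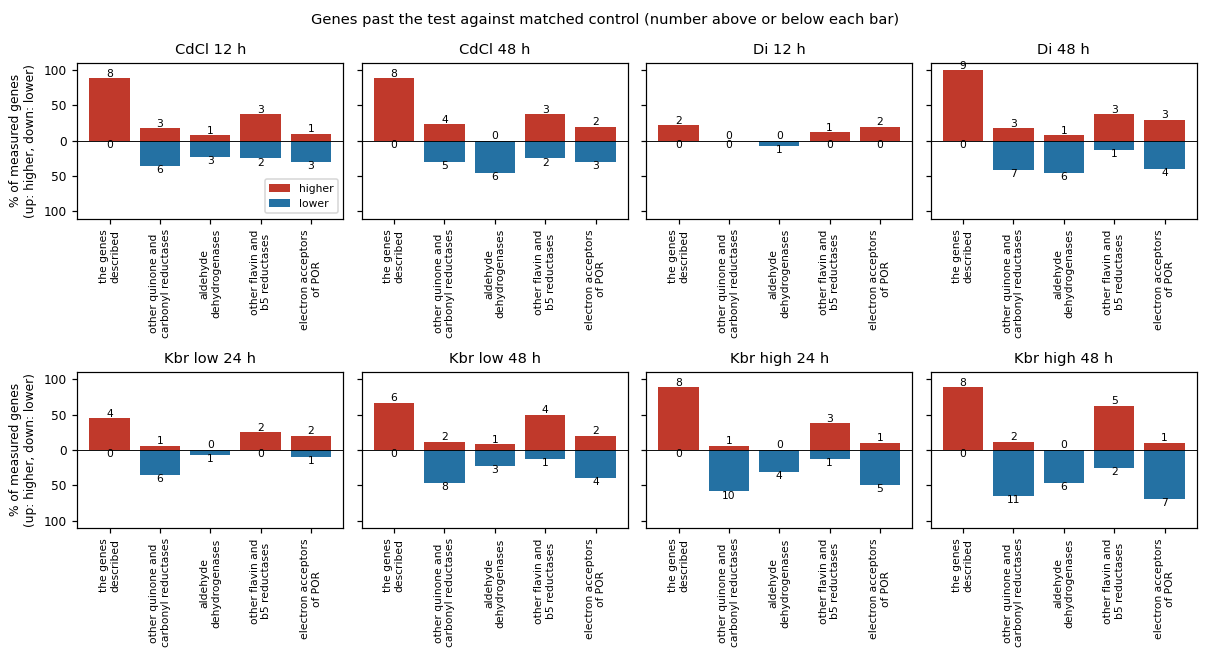
Percent of measured genes past the test against matched control (vertical axis; higher in red upward, lower in blue downward) for the genes described here and 4 lists of related enzymes, in each treated group, with the number of genes at each bar. In the first column of each panel 0 genes are lower, while the other quinone and carbonyl reductases have more genes lower than higher in 7 of the 8 panels, as all genes do in 7 of the 8.

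Other enzymes of the same kinds moved in both directions. Over all genes, 13.4% were higher and 30.5% lower with CdCl at 12 h, 20.7% and 22.0% with CdCl at 48 h, 1.67% and 4.60% with Di at 12 h, 19.1% and 23.9% with Di at 48 h, 6.93% and 8.28% with low Kbr at 24 h, 23.8% and 23.2% with low Kbr at 48 h, 15.4% and 25.3% with high Kbr at 24 h, and 27.3% and 34.5% with high Kbr at 48 h, and the counts of each list stand beside these shares. Of 26 other quinone, carbonyl, enone and aldehyde reductases, 17 were measured. With CdCl at 12 h 3 rose and 6 fell, close to the shares over all genes, with Di at 48 h 3 rose and 7 fell (median -0.31), and with high Kbr at 48 h 2 rose and 11 fell (median -0.72). The risers included NQO2, a quinone reductase that resembles NQO1 (2.09 ± 0.10 with CdCl and 1.88 ± 0.10 with Di at 48 h), and AIFM2, a reductase of coenzyme Q (2.23 ± 0.15 with Di at 48 h). DHRS11, a short-chain dehydrogenase, fell with Di (-2.58 ± 0.40) and high Kbr (-2.96 ± 0.40) at 48 h, and DHRS1 with high Kbr (-2.73 ± 0.21). Of 17 aldehyde dehydrogenases, which oxidize the aldehydes that aldo-keto reductases reduce, 13 were measured, and with Di at 48 h 1 rose and 6 fell. ALDH3A2, the fatty aldehyde dehydrogenase, fell with CdCl (-1.44 ± 0.14) and rose with Di (1.06 ± 0.14) at 48 h.

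Among 8 measured flavin, cytochrome b5 and disulfide reductases of 11 listed, 3 rose and 1 fell with Di at 48 h and 5 rose and 2 fell with high Kbr at 48 h. TXNRD1, thioredoxin reductase, rose in all 8 comparisons with control, by 0.92 ± 0.11 with Di at 12 h to 2.86 ± 0.11 with CdCl at 12 h. Of 21 listed acceptors of electrons from POR, 10 were measured. HMOX1, the inducible heme oxygenase that POR reduces, rose in all 8 comparisons, by 0.84 ± 0.19 with Di at 12 h and by 6.27 ± 0.19 with CdCl at 12 h (adjusted p = 3.02e-20). In contrast CYP1B1, a P450 of aromatic compounds, fell with CdCl (-1.71 ± 0.33) and Di (-2.14 ± 0.33) at 48 h, and CYP4V2, a fatty acid hydroxylase, fell with high Kbr (-3.26 ± 0.18) at 48 h, when 1 of the 10 rose and 7 fell. The other 2 measured epoxide hydrolases of 4 listed fell with Di at 48 h and with high Kbr at 48 h (LTA4H -0.64 ± 0.10 and -0.88 ± 0.10, EPHX4 -0.87 ± 0.30 and -0.97 ± 0.30), where EPHX1 rose. Of 9 measured index genes of NRF2 out of 10, 8 rose with Di at 48 h (19.1% of all genes), 4 with Di at 12 h (1.67%) and 9 with low or high Kbr at 48 h (23.8% and 27.3%). With CdCl 7 rose and 1 fell at 12 h, and 6 rose and 1 fell at 48 h. Of 4 measured genes of the aryl hydrocarbon receptor battery out of 7, only AHR itself rose in any comparison with control, with CdCl at 12 h (0.38 ± 0.14, or 0.54 above the median of all genes, adjusted p = 0.0261). That list did not count NQO1, which rose in all 8 comparisons. Of its 4 genes, 2 fell with high Kbr at 24 h and 3 at 48 h, where 25.3% and 34.5% of all genes were lower. With CdCl at both times, Di at 48 h and low Kbr at 48 h, 1 fell.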

How the data were processed

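The authors deposited a log2 value for each probe set on each array. GCRMA, which corrects background from probe sequence and normalizes across arrays, is the method that the submitters' processing notes name; its version is not given in the sources used here. Differences of dim genes are compressed by this background. Groups and replicate numbers came from the sample descriptions. Probe sets were kept above 4 on at least 3 of 36 arrays, those with exactly 1 gene symbol were used (41091 of 54675 have 1, 1801 several, 11721 none, besides 62 controls), and the highest-mean probe set stood for a gene, leaving 11092 genes. All arrays entered one limma 3.58.1 model (R 4.3.3) of 12 group means with Benjamini-Hochberg adjustment at 0.05. SEs are the model's, from a spread pooled over both sets, and can be smaller or larger than the compared groups alone would give. Group SDs of POR were 0.03 to 0.26 in the CdCl and Di set and 0.32 to 0.55 in the Kbr set. Those of CBR3 were 0.11 to 0.50 and 0.07 to 0.34. For POR with low Kbr at 24 h the SE was 0.25, and 0.32 with only the set. A fold against a group mean under 4 was computed against 4 and is written "at least". The script was tested on simulated arrays. The number of arrays limits precision.

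The genes and the related lists were chosen with earlier results of these data known. Named genes are the 10 listed, up to the 3 largest passing differences of each list per comparison, HMOX1, GCLM and TXNRD1, and the 3 most alike in pattern, of which some are printed. Alternatives were filters, quantile normalization, median centring, a variance trend, probe set means, fewer arrays, a replicate block and leaving out each array.

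Same-numbered arrays of the Kbr set correlated in their deviations from group means in 45 of 45 pairs (r = 0.218 to 0.701), so the numbers were taken to pair them, from the data. In the CdCl and Di set 8 of 45 pairs exceeded 0.1 (-0.348 to 0.416) and the numbers were not used.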

Additional observations from a re-analysis of the deposited data

Results flagged for a closer look

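Responses that changed between times, by a test of the change itself, were found for every measured gene but CBR1. For CdCl from 12 h to 48 h they were 0.56 for NQO1, 0.98 for POR, -3.03 for AKR1B10 and -1.73 for AKR1C2. The NQO1 and POR values did not pass after median centring (adjusted p = 0.0870 and 0.0524), and the POR call was lost with 11 of 12 arrays left out in turn. For Di over the same times they were 3.17 for NQO1, 3.57 for POR, 1.06 for CBR3, 3.49 for AKR1B10, 4.79 for AKR1C1, 4.28 for AKR1C2, 3.34 for AKR1C3 and 2.01 for EPHX1. AKR1B10 and AKR1C2 thus moved in opposite directions over time under CdCl and Di. For low Kbr from 24 h to 48 h they were 1.47 for NQO1 and 1.25 for POR, and for high Kbr 1.12 for NQO1, 1.39 for POR, 1.16 for AKR1B10 and 1.18 for AKR1C1. The low-dose POR call was lost with 7 of 12 arrays left out in turn, and the high-dose AKR1C1 call with 6 of 12. With only the set, the high-dose POR call was lost (adjusted p = 0.0761).

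Responses at 48 h that differed between compounds, again by a test of the difference, were larger for Di than for high Kbr by 0.87 for NQO1, 0.91 for CBR3, 1.63 for AKR1B10, 2.52 for AKR1C1, 3.12 for AKR1C2, 2.60 for AKR1C3 and 0.97 for EPHX1. CdCl against high Kbr gave -0.68 for AKR1B10 and 0.80 for AKR1C2, where 50.1% of all genes differed in either direction. These 2 calls were lost with no filter (adjusted p = 0.0606 and 0.0703). They were also lost with 8 of 12 and 7 of 12 arrays left out in turn. Set and compound cannot be told apart in these, and the AKR1B10 values involve group means under 4.

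A signal stood out in data that the comparisons did not use. A probe set that the platform annotation gives to both AKR1C1 and AKR1C2 averaged 7.10 with CdCl at 12 h against 2.43 in the controls of that time. With Di at 48 h it read 2.72, 5.56 and 2.76, so that the mean of 3.68 came from replicate 2 alone, and it averaged 2.40 to 2.45 in the 9 other groups, although the AKR1C1 and AKR1C2 probe sets used above read 11.71 and 11.14 with Di at 48 h and 12.06 and 11.75 with CdCl at 12 h. What transcript it reads was not tested.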

How the results depend on the processing

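Over the alternatives, 3006 gene values were recomputed: 2857 kept their direction and side of the threshold, 121 lost the call, 28 gained it and 0 reversed. The number of genes called moved beyond 1.5 times as follows. With only the groups compared, it fell to 0 for Di at 12 h, 2 for low Kbr at 24 h, 5 for high Kbr at 24 h, 0 for Kbr high against low at 24 h, 0 for the Kbr controls over time, 0 for the low Kbr response over time, 2 for the high Kbr response over time and 1 for CdCl against high Kbr; the Di 12 h calls then had adjusted p-values of 0.0732 (NQO1) and 0.0575 (CBR1). With only the arrays of the set it was 2 for low Kbr at 24 h, 0 for Kbr high against low at 24 h, and 1 and 2 for the low and high Kbr responses over time. With no filter it was 1 for the low Kbr response over time and 0 for CdCl against high Kbr, which came to 1 after quantile normalization and 1 after median centring. Median centring left 2 for the CdCl response over time. The causes of these moves were not tested.

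Leaving out 1 array at a time gave 7 genes for CdCl at 12 h, 8 at 48 h, 0 to 2 for Di at 12 h, 9 at 48 h, 3 to 5 and 6 for low Kbr, 7 to 9 and 8 for high Kbr, 0 to 1 and 1 for the doses, 6 and 7 for CdCl against Di, 4 to 5 and 1 to 2 for the controls over time, 2 to 4, 8, 1 to 2 and 3 to 4 for the CdCl, Di, low and high Kbr responses over time, and 0 to 2 and 6 to 7 for CdCl and Di against high Kbr.

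With the replicate block, the calls were 3 for Kbr high against low at 48 h, 2 for the Kbr controls over time and 4 for CdCl against high Kbr. In the CdCl and Di set, where the numbers did not pair the arrays, the block brought EPHX1 in CdCl against Di at 12 h (adjusted p = 0.0123) and the CdCl responses of AKR1C1 (0.0306) and AKR1C3 (0.0490) past the threshold. It changed no other call of the 9 genes than these and those given above.

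Over all genes, the block took the calls from 695 to 1662 for Di at 12 h, 1687 to 2720 for low Kbr at 24 h, 487 to 1171 for the doses at 24 h, 1358 to 2498 for the Kbr controls, and 482 to 1243 and 1663 to 2668 for the low and high Kbr responses over time. With only the compared groups these 6 came to 298, 267, 38, 4, 5 and 454, and with only the set to 1446, 933, 108, 633, 6 and 870; low Kbr at 48 h (5212) came to 3445 and the doses at 48 h (2638) to 647 with the compared groups. Leaving out 1 array gave 286 to 613, 824 to 1882, 196 to 378, 387 to 1765, 110 to 949 and 1054 to 2127 for the 6. Median centring took the share of calls that were higher from 30.5% to 51.0% for CdCl at 12 h, 26.6% to 53.7% for Di at 12 h (39.4% with quantile normalization), 37.9% to 51.0% for high Kbr at 24 h, 15.6% to 44.9% and 27.1% to 54.7% for the doses at 24 h and 48 h, 38.1% to 50.5% for CdCl against Di at 12 h, 40.1% to 51.1% and 41.5% to 52.6% for the controls, 67.9% to 45.5% for the CdCl response over time and 58.5% to 45.6% for the low Kbr response. AKR1B10 and CBR3 lie closest to the background signal, which limits what their differences can show.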
